A study of Mus musculus with 10 samples.

Results

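The genes described here are the 10 receptors and Smad proteins that carry a bone morphogenetic protein (BMP) signal from the cell surface to the nucleus. They were chosen by gene name, as the rows named Bmpr1a, Bmpr1b, Bmpr2, Acvr1, Acvr2a, Acvr2b, Smad1, Smad5, Smad9 and Smad4, and all 10 were found once each among 29583 rows. The cells were MC3T3-E1, an osteoblast precursor line derived from mouse skull, which the sample labels also call mesenchymal stem cells from the bone marrow of newborn C57BL/6 mice. All libraries therefore share 1 line, and no other line or primary cell was measured. β-ecdysterone, a plant steroid, was given at 100, 150 or 200 μM, and messenger RNA was sequenced on day 5 and on day 10, with 1 library for each dose and day (6 treated libraries). The controls were 1 library at 0 μM for each day and a pair of untreated libraries, A-5 and B-4, whose labels give no time.

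BMP ligands bind a complex of type I and type II receptors, both of which are serine and threonine kinases. The type II receptor phosphorylates the type I receptor, which in turn phosphorylates Smad1, Smad5 or Smad9, and these join Smad4 and enter the nucleus to act on target genes. In bone-forming cells this route is known for driving osteoblast differentiation. Type I receptors are Bmpr1a, Bmpr1b and Acvr1, and type II receptors are Bmpr2, Acvr2a and Acvr2b, of which Acvr1, Acvr2a and Acvr2b also take part in activin signalling.

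The libraries held 27108562 to 58218009 counts, and 3 counts, taken here as the lowest amount that can be told from 0, were worth 0.0502 to 0.118 normalized CPM (counts scaled to the library total). The libraries fell into depths above and below 40000000 counts. Both 150 μM libraries were in the deeper class and both 100 μM libraries in the shallower one, so dose and depth cannot be fully told apart. The untreated libraries were not alike: A-5 lay at a mean distance of 99.6 from the 0 μM libraries and 151.5 from the treated ones, whereas B-4 lay at 157.9 and 139.4 (Euclidean distance over log2 CPM). For that reason results are given against 0 μM first and against the untreated pair beside them. Of the 11 osteoblast markers checked, none was at 0 in all libraries, and their summed level was 18989 to 39437 CPM in treated, 23080 to 27999 at 0 μM, 16305 in A-5 and 15071 in B-4. Against 0 μM, 5 of the 11 markers were higher, 1 was lower and 5 did not pass, where 22.6% of all genes were higher and 20.8% lower. The marker of lowest p was Alpl, the alkaline phosphatase of bone-forming cells. It was at 0 and 0.0632 CPM in the 0 μM libraries and at 43.0 ± 19.5 CPM (SD, n = 6) in treated cells.

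Transcript levels per length (FPKM) spread the members over a wide range. Bmpr1a had the highest mean over the 10 libraries, 21.6 ± 2.64 FPKM (SD, n = 10), above 84.7% of the 18994 Ensembl genes compared. Smad4, the partner shared with TGF-β signalling, followed at 19.2 ± 2.36 FPKM, and Bmpr1a was above it in 7 of 10 libraries, so these neighbours were not separated beyond their spread. Acvr1 was at 15.6 ± 2.07 FPKM, below Smad4 in 9 of 10 libraries.

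Below these 3 genes, Bmpr2 was at 8.39 ± 0.916 FPKM, lower than Acvr1 in 10 of 10 libraries. Smad5 at 6.85 ± 0.732 FPKM and Smad1 at 6.20 ± 0.989 FPKM were neighbours whose order held in 7 of 10 libraries. Acvr2a was at 2.90 ± 0.293 FPKM and Smad9, the third BMP Smad, at 2.24 ± 0.783 FPKM, and this order also held in 7 of 10. Smad9 had the widest spread of the 8 genes relative to its mean.

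Bmpr1b and Acvr2b were at or near the limit of detection. Bmpr1b had 37 counts over the 10 libraries, with 4 in A-5, 0 in B-4, 0 and 2 at 0 μM on days 5 and 10, 5, 9 and 0 on day 5 at 100, 150 and 200 μM, and 2, 6 and 9 on day 10 in the same dose order. Acvr2b had 19 counts, all in treated libraries: 4 at 150 μM on day 5, and 2, 8 and 5 at 100, 150 and 200 μM on day 10. Neither gene passed the filter on low counts and neither was tested, so the 8 tested genes are not all members. Nearly all type I transcripts were thus of Bmpr1a and Acvr1, and nearly all type II transcripts of Bmpr2 and Acvr2a.

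**Figure D1:**
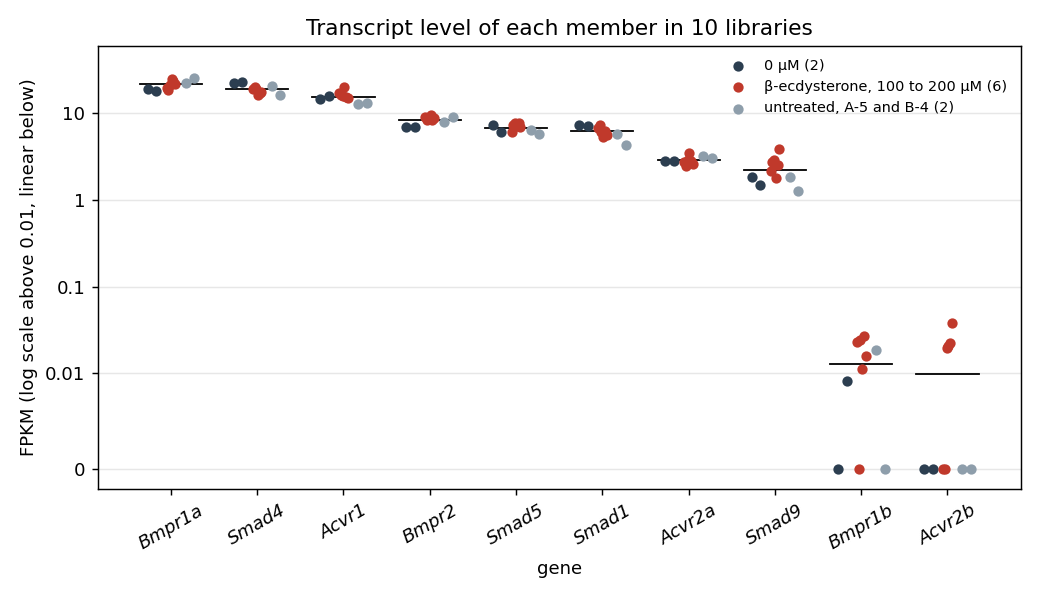
Transcript level (FPKM, log scale above 0.01 and linear below) of each member in the 10 libraries, with points for single libraries colored by group and a bar at the mean of all 10. Mean levels run from 21.6 FPKM for Bmpr1a to 2.24 for Smad9, and Bmpr1b and Acvr2b lie near or at 0.

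Within each class the makeup was given as a share of the summed FPKM, as a description with no test. Bmpr2 made up 75.6 ± 1.72% (SD, n = 6) of type II transcripts in treated cells, with a lowest library of 73.0%, and 70.9% in each 0 μM library. The untreated libraries were at 71.1% and 75.2%, the first near 0 μM and the second among the treated values. Bmpr1a made up 56.4 ± 2.89% of type I transcripts in treated cells and 53.7% and 56.6% at 0 μM, which overlap, but 63.8% and 66.3% in the untreated libraries. Both untreated libraries lay above every other library in this share.

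Among Smad1, Smad5 and Smad9, the Smads that BMP receptors phosphorylate, Smad9 made up 16.5 ± 3.80% in treated cells, from 12.8% to 23.6%, against 10.2% and 11.3% at 0 μM and 11.1% and 13.0% untreated. Smad1 made up 38.9 ± 4.10% in treated cells and 44.6% and 48.8% at 0 μM. FPKM of Smad4 divided by the sum of these 3 Smads was 1.14 ± 0.0845 in treated cells, from 1.04 to 1.28, below both 0 μM libraries at 1.35 and 1.58 and both untreated ones at 1.45 and 1.47. All 6 treated ratios were thus below all 4 controls, but the gap from 1.28 to 1.35 was narrow. How many other ratios separate in this way was not counted. The 3 Smads summed to 14.2 to 17.3 FPKM in treated cells, 14.7 and 16.5 at 0 μM, and 13.99 and 11.35 in A-5 and B-4. Against the untreated pair the lower ratio therefore went with a higher sum of the 3 Smads.

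**Figure D2:**
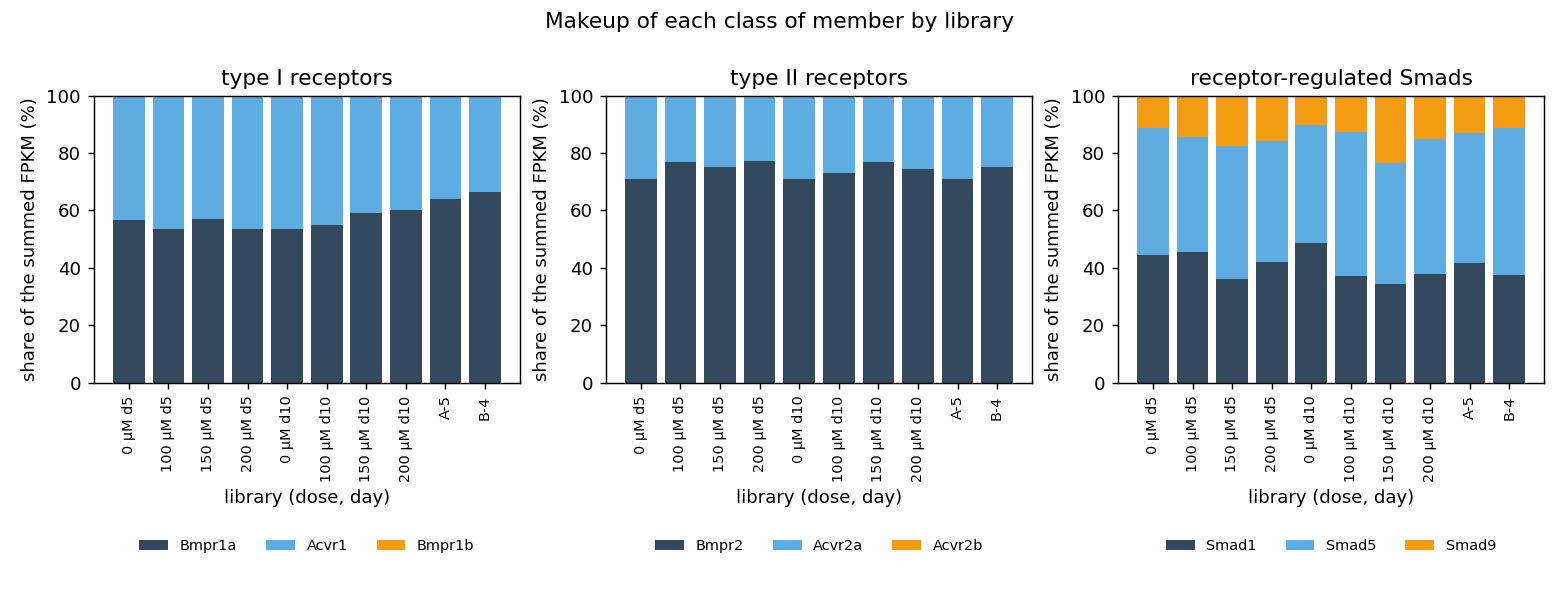
Share of the summed FPKM (%) of each gene within the type I receptors, the type II receptors and the receptor-regulated Smads, in each of the 10 libraries (d, day). Smad9 takes 12.8% to 23.6% in treated libraries and 10.2% to 13.0% in the controls, and the bars of Bmpr1b and Acvr2b are too small to see.

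The first comparison asked which members differed between treated and 0 μM cells. Against 0 μM, Bmpr2 and Smad9 rose and Smad4 fell, each by less than 2-fold. Of 8 members tested, 2 were higher, where 22.6% of the 16794 genes tested were higher, and 1 was lower, where 20.8% of all genes were. Together 37.5% of the tested members passed, against a background of 43.3%. None passed with a change beyond 2-fold as well, against 19.4% of all genes. Against the untreated pair 0 of the 8 were higher and 0 lower in edgeR, where 9.9% and 10.1% of all genes were. There 3 (Smad9, Acvr1 and Smad1, all higher) had an unadjusted edgeR p under 0.05. The share of all genes under that unadjusted limit against this pair is not given here, so the 3 are not read as an excess. The median absolute log2 fold change was 0.21 over the 8 members and 0.42 over all genes tested. Against 0 μM an unadjusted edgeR p under 0.05 was found for 4 of the 8 members and for 51.5% of all genes tested. Where a share of all genes is given, these counts are near or under it, and the members are therefore described one by one. Where the libraries of a member did not overlap between groups, the share of all genes that do so was not counted. In bulk RNA, fewer cells of a type and less RNA per cell cannot be told apart.

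Bmpr2, a type II receptor for BMPs, was at 97.1 and 98.2 CPM in the 0 μM libraries of day 5 and day 10. In treated cells it was at 134, 123 and 121 CPM on day 5 and 149.7, 134 and 122 CPM on day 10, in the order 100, 150 and 200 μM. All 6 treated libraries lay above both 0 μM libraries. The fold change was 1.33 (95% interval 1.15 to 1.55, log2 0.41, SE 0.10, edgeR adjusted p = 0.00691). The untreated libraries were at 111 CPM in A-5 and 135 CPM in B-4, and 5 of the 6 treated libraries lay between these values. Against the untreated pair the log2 fold change was 0.08, with adjusted p = 0.668 in edgeR, so the call on Bmpr2 rests on which control is used. Leaving out the day 10 library at 0 μM gave 0.36 (edgeR adjusted p = 0.102).

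Smad9 was at 10.9 and 8.82 CPM at 0 μM. Its treated libraries were at 13.0, 16.9 and 16.3 CPM on day 5 and 11.9, 24.5 and 15.5 CPM on day 10, in the same dose order. Every treated library was above both 0 μM libraries and above A-5 at 10.7 CPM and B-4 at 7.79 CPM. The fold change against 0 μM was 1.64 (95% interval 1.11 to 2.44, log2 0.72, SE 0.26, edgeR adjusted p = 0.0451), the largest among the members. Against the untreated pair it was 0.82 on the log2 scale (edgeR adjusted p = 0.0608), and with all 4 controls joined it was 0.78. The call was close to the threshold and was lost on leaving out any of 5 libraries: either 0 μM library, 200 μM or 150 μM of day 5, or 200 μM of day 10 (edgeR adjusted p 0.0605 to 0.351).

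Smad4 was at 82.3 and 86.0 CPM at 0 μM. Treated cells had 73.4, 70.5 and 75.8 CPM on day 5 and 66.0, 70.1 and 66.4 CPM on day 10, all below both 0 μM libraries. The fold was 0.831 (95% interval 0.735 to 0.939, log2 -0.27, SE 0.08, edgeR adjusted p = 0.0212). A-5 had 75.1 CPM and B-4 had 63.6 CPM, with 5 of the 6 treated libraries between them, and against this pair the difference was 0.02 on the log2 scale (edgeR adjusted p = 0.922). The call was also lost on leaving out the day 10 library at 0 μM, at -0.19 (edgeR adjusted p = 0.273). Within the deeper and the shallower libraries, each with 3 treated and 1 at 0 μM, the log2 differences were -0.27 and -0.26 for Smad4, 0.37 and 0.46 for Bmpr2 and 0.78 and 0.64 for Smad9, none past the test (edgeR adjusted p 0.0884 to 0.250). With depth class as a covariate over all 8 libraries the same 3 genes passed, at -0.27, 0.41 and 0.71 (edgeR adjusted p 0.0153, 0.00459 and 0.0160). Both were chosen after seeing the data. The fits within a depth class had no day covariate. Their 0 μM library was of day 5 in the deeper class and of day 10 in the shallower one, so day is mixed with treatment there.

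Bmpr1a, the main type I receptor of the line by transcript level, was at 122 and 119 CPM at 0 μM and at 130.1, 136 and 124 CPM on day 5 and 176, 152 and 158 CPM on day 10 of treatment. The groups did not overlap, yet the fold of 1.19 (95% interval 1.01 to 1.40) did not pass the test (edgeR adjusted p = 0.0755). Its log2 difference of 0.25 was 0.07 on leaving out the day 10 library at 0 μM (edgeR adjusted p = 0.737) and 0.44 on leaving out that of day 5 (edgeR adjusted p = 0.0323). Untreated cells were at 145 and 173 CPM, and 2 treated libraries lay between these.

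The other 4 tested members did not pass. Acvr1, a type I receptor whose activating mutation is known from a disorder of bone formation in soft tissue, had a fold of 1.13 (0.910 to 1.39). Acvr2a, a type II receptor shared with activin, had 1.04 (0.837 to 1.29). Smad5 had 1.11 (0.924 to 1.33) and Smad1 had 0.888 (0.751 to 1.05), with edgeR adjusted p from 0.223 to 0.766 over these 4 genes. In this fit against 0 μM their intervals include no change and reach no further than 1.39-fold up or 0.751-fold down. Smad1 and Acvr1 lay above the untreated pair, by 0.35 and 0.39 on the log2 scale, and neither passed that test.

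**Figure D3:**
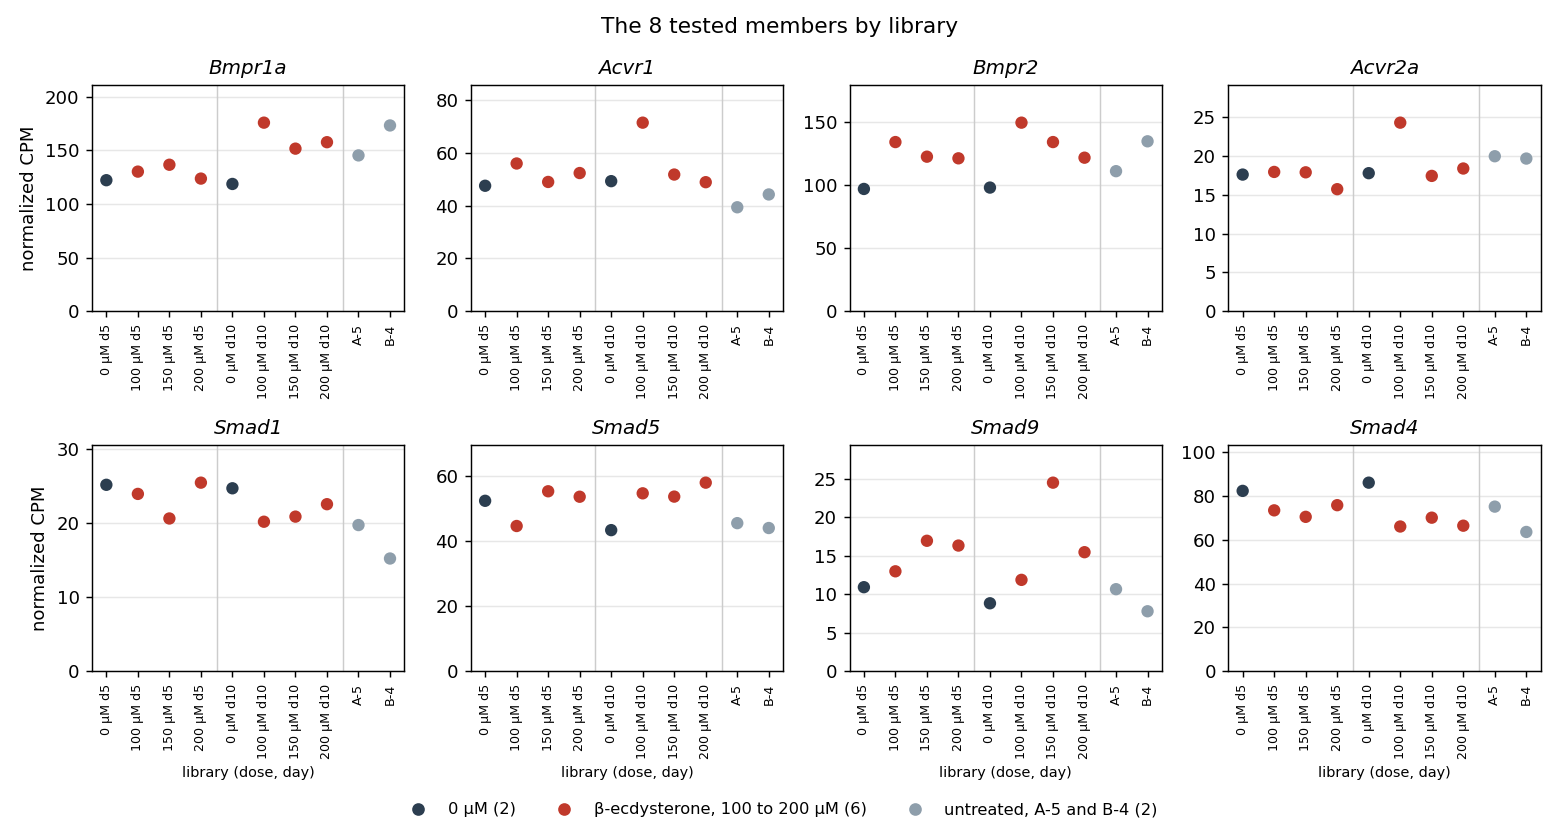
Normalized CPM of the 8 tested members in each library, by dose and day (d), on axes that start at 0. For Bmpr1a, Bmpr2 and Smad9 all 6 treated libraries lie above both 0 μM libraries, and for Smad4 all 6 lie below. The share of all genes that separate in this way was not counted. For Bmpr2 and for Smad4, 5 of the 6 treated values lie between the untreated libraries.

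**Figure D4:**
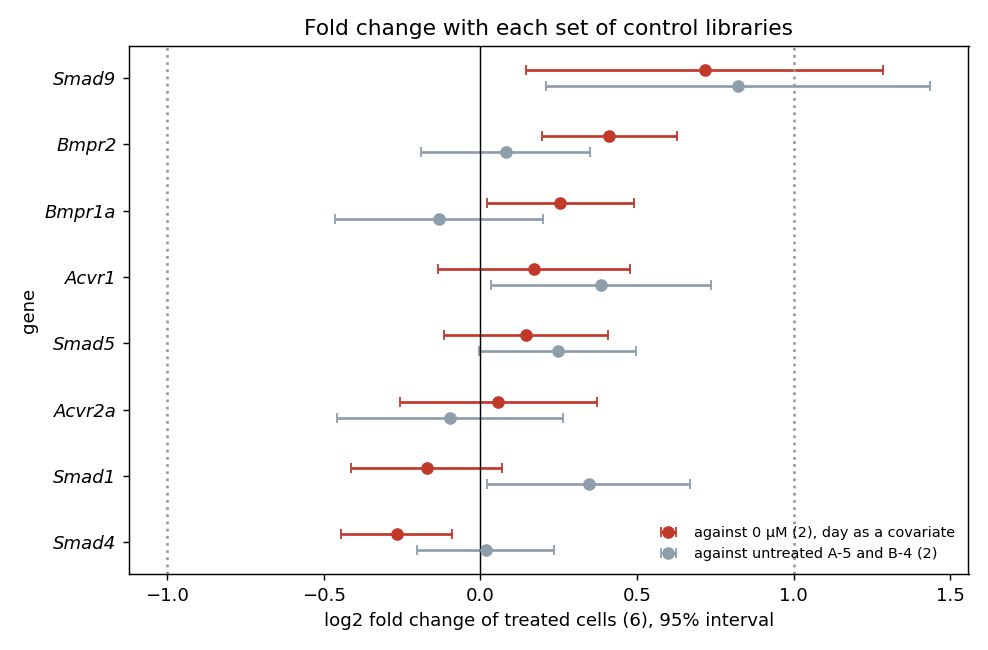
Log2 fold change of the 6 treated libraries with its 95% interval for the 8 tested members, against the 0 μM pair with day as a covariate and against the untreated pair. Dotted lines mark a 2-fold change. Bmpr2 moves from 0.41 to 0.08 and Smad4 from -0.27 to 0.02 between controls, while Smad9 stays at 0.72 and 0.82.

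The time of treatment was compared in treated cells, 3 libraries a day. No member differed between day 10 and day 5 in edgeR, where 2.8% of all genes did. Bmpr1a was nearest, at 130.1 ± 6.44 CPM on day 5 and 161.6 ± 12.6 CPM on day 10 (SD, n = 3), a log2 difference of 0.32 (SE 0.09, edgeR adjusted p = 0.107). It was the 1 member with an unadjusted edgeR p under 0.05, where 18.3% of all genes tested had one. DESeq2 called it at 0.31 (adjusted p = 0.0456), and called 1199 genes in all where edgeR tested 16020.

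Each day was then read alone. Here the control is 1 library, so the spread comes from the treated libraries and the lone control is assumed to vary like them. On day 10 the log2 differences were 0.44 for Bmpr1a, 0.45 for Bmpr2 and -0.36 for Smad4, past the threshold under that assumption (edgeR adjusted p 0.0341, 0.0390 and 0.0407), as were 30% of all genes. That of Smad9 was 0.97 (edgeR adjusted p = 0.0711). On day 5 no member passed, where 22.7% of all genes did, and Bmpr2 was again 0.36 higher (edgeR adjusted p = 0.0989). The difference between the days itself passed for no member, with a lowest edgeR adjusted p of 0.653 and none under 0.05 before adjustment in edgeR or called by DESeq2, and for 0.0112% of all genes. No difference in response between the days was shown for any member. On simulated counts this test recovered 3 of 200 genes planted at a log2 change of 1, so it cannot show that the days are alike.

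Dose was compared as a slope over 100, 150 and 200 μM in treated cells. No member passed in edgeR (adjusted p 0.997 for each, none under 0.05 unadjusted) or in DESeq2, and 0.006% of all genes did, which is 1 gene. Smad9 had a slope of 0.34 per 100 μM on the log2 scale (SE 0.31), and its highest value on each day was at 150 μM, in libraries of the deeper class. With depth class as a covariate the slope of Smad9 was 0.16. It was -0.02 on leaving out the 100 μM library of day 10, so its sign rests on that library. Acvr1 had a slope of -0.32 (SE 0.15), which was -0.20 with depth class as a covariate and -0.10 without that library. Bmpr2 had a slope of -0.22 (SE 0.11).

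Promoters are shown for the members that rose, Bmpr2 and Smad9, and for Acvr2b, which was hardly detected, so that their base composition can be set side by side. They are RefSeq windows of GRCm38.p6 on the plus strand, from 250 bases before to 50 after a RefSeq transcript start, at chr1:59764029-59764328, chr3:54755332-54755631 and chr9:119401928-119402227. Capitals mark the letters GGCGCC, which read the same on both strands.
Bmpr2: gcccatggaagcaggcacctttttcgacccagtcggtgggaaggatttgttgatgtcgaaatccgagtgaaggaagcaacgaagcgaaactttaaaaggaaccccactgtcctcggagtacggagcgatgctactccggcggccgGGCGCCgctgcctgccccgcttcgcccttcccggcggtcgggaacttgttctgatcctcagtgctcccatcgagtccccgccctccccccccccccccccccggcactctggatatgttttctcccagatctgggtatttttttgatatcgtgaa
Smad9: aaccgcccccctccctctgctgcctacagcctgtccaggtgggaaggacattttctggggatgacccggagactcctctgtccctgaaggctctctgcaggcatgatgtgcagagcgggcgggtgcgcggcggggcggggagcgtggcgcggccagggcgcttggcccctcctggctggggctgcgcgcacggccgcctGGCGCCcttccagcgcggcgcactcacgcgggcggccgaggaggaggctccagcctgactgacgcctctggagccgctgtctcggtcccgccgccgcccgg
Acvr2b: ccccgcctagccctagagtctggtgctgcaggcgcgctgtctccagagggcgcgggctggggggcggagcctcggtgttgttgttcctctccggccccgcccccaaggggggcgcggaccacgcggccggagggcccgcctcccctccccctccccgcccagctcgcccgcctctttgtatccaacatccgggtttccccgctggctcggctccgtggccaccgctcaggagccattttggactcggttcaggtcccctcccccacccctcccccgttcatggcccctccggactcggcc

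GGCGCC begins 105 bases before the start in Bmpr2 and 51 before it in Smad9. It occurred in 5 of 13 windows of the members, in 4 of the 9 genes matched (Bmpr2, Smad9, Bmpr1a and Smad5), and in 11.9% of 32851 windows overall. The Smad5 windows with it overlap and hold the same site. GGCGCC itself holds a CpG, and the member windows with it held 23 to 48 CpG pairs. Its share over windows of like CpG content was not counted. TATAAA on either strand was the other of the 2 motifs searched, and it occurred in 1 member window, of Bmpr1b, and in 13.6% of all windows. The Acvr2b window held 27 CpG pairs and that of Bmpr2 held 23, against a median of 7 over all windows, whereas the Bmpr1b windows held 5 and 6. So the weakly detected receptors differed in CpG content, and a match of letters shows no binding.

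The genes most like Smad9 and Bmpr2 over the 10 libraries were found from centred log2 CPM profiles, by root mean square difference among 10385 genes. For Smad9 these were Slc2a9 (0.163), Nabp1 (0.175) and Arid5a (0.190), against a median of 0.546. For Bmpr2 they were Txndc16 (0.0538), Vps13d (0.0637) and Gpr107 (0.0649), against a median of 0.318. These are likenesses of profile in libraries that share depth and treatment, and no test was made.

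Around the members, 84 other genes of the pathway were read from lists, and 70 were tested against 0 μM: 25 were higher (35.7%, against 22.6% of all genes), 13 were lower (18.6%, against 20.8%) and 32 did not pass. The lists were chosen with earlier results of these data known, so these shares describe the lists and are no test of the pathway. Over these tested genes, 16 rose and 2 fell beyond 2-fold, which no member did. Of all genes tested, 19.4% passed beyond 2-fold in either direction, and the share for each direction is not given here. Against the untreated pair 13 were higher and 8 lower, where 9.9% and 10.1% of all genes were. On leaving out the day 10 library at 0 μM 12 were higher and 6 lower, where 11.5% and 10.2% of all genes were. The lists below are to be read against the same shares of all genes. Of each list the genes of lowest p are named, and each of these passed with an edgeR adjusted p of at most 0.0215. Among 14 BMP ligands 5 were tested and 3 were higher, and Gdf6 went from 2.24 and 1.36 CPM at 0 μM to 5.48 ± 1.10 CPM. Bmp8b was at 0.0393 and 0.0632 CPM at 0 μM, under the 3-count limit, and at 0.399 ± 0.187 CPM in treated cells. Of 14 antagonists tested, 6 were higher and 2 lower. Grem1, which binds and blocks BMPs, fell by 2.33 on the log2 scale, and Bmper, a secreted BMP modulator, rose by 3.01.

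Co-receptors had 3 of 5 higher and none lower, among them Tgfbr3 (0.96) and Rgmb (0.86). Inhibitory Smads and other negative regulators had 3 higher and 6 lower of 12, with Smurf1, a ubiquitin ligase that acts on BMP Smads, at -0.93 and Nedd4l at -0.81. In the TGF-β and activin branch 3 of 8 were higher and 2 lower, with the transducer Smad3 at -1.10 and the receptor Tgfbr1 at 0.57. Smad anchors and cofactors had 1 higher (Zfp423, a BMP Smad cofactor, 1.25) and 2 lower (with Ywhae at -0.58) of 8. Genes of the kinase arm outside the Smads had 2 higher (Mapk14, 0.56, and Tab2, 0.34) and 1 lower of 7.

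BMP target genes had 6 of 14 tested higher and 1 lower. Tmem100 rose by 3.77 and Sp7, an osteoblast transcription factor, by 3.74 on the log2 scale, from 1.16 and 0.854 CPM and from 6.04 and 5.03 CPM at 0 μM. Sp7 is also among the osteoblast markers, of which 5 of 11 were higher and 1 lower. Beside the members, markers of other cells were summed in the same libraries. Macrophage markers were at 4.57 to 7.13 CPM in treated cells and 11.9 to 12.5 CPM at 0 μM, but at 12.7 CPM in A-5 and 5.17 CPM in B-4, which is within the treated range. Muscle markers were at 4.85 to 9.19 CPM in treated cells, 1.83 to 2.28 CPM at 0 μM, 2.47 CPM in A-5 and 4.80 CPM in B-4, just under the lowest treated library. Endothelial markers were at 2.15 to 2.71 CPM in treated cells, 0.786 to 1.11 CPM at 0 μM and 1.02 and 0.861 CPM in A-5 and B-4, so treated cells were above all 4 controls. Adipocyte markers were at 2.63 to 5.70, 1.90 to 2.14, and 1.25 and 2.42 CPM in the same order, chondrocyte markers at 87.1 to 167.9, 92.2 to 104.9, and 60.6 and 80.6 CPM, and epithelial markers at 0.276 to 1.29, 0.411 to 0.550, and 1.94 and 0.696 CPM. Of the markers tested against 0 μM, 0 of 3 macrophage genes were higher and 1 was lower, while 2 of 3 muscle, 2 of 4 endothelial, 1 of 4 adipocyte, 2 of 4 chondrocyte and 1 of 2 epithelial genes were higher and none lower, and Krt18 was at 0 in all libraries. Some of the higher genes were at or near the 3-count limit at 0 μM. These were Lep (0.0393 and 0.0632 CPM), Cdh5 (0.0590 and 0.0632), Ckm (0.0786 and 0.0949) and Krt14 (0 and 0.0632). Their treated means were 0.211 to 1.27 CPM. Des, Comp and Sox9, also higher, were well above that limit. Tek, also higher, was low but above it, at 0.0983 and 0.285 CPM at 0 μM and 0.648 ± 0.268 CPM in treated cells. The part of these markers in the results on the members was not tested.

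In the GENCODE M21 annotation of GRCm38 the receptors lie at 14:34410734-34503341 (Bmpr1a, ENSMUSG00000021796), 3:141837136-142169425 (Bmpr1b, ENSMUSG00000052430), 2:58388644-58567157 (Acvr1, ENSMUSG00000026836), 1:59763400-59879014 (Bmpr2, ENSMUSG00000067336), 2:48814109-48903269 (Acvr2a, ENSMUSG00000052155) and 9:119402118-119434995 (Acvr2b, ENSMUSG00000061393). The Smads lie at 8:79338395-79399518 (Smad1, ENSMUSG00000031681), 13:56703010-56742377 (Smad5, ENSMUSG00000021540), 3:54755582-54801257 (Smad9, ENSMUSG00000027796) and 18:73639009-73703780 (Smad4, ENSMUSG00000024515). All 10 are protein-coding. Exons of Bmpr1a overlap the antisense gene Gm17110, those of Acvr2a overlap Orc4 on the opposite strand and those of Smad5 overlap Gm27301 on the same strand, and since use of strand in the counting is not given in the sources used here, counts of these 3 members may include reads of their neighbours.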

How the data were processed

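Messenger RNA of MC3T3-E1 cells was sequenced by the authors in 10 libraries and deposited as raw counts per gene and as FPKM, per the file headers, over 22036 Ensembl genes and 7547 newly assembled loci. HISAT2 2.0.4 and GATK 3.2-2 are named in the submitters' processing notes without a role, and the build, annotation and counter are not given in the sources used here. Columns of the authors' own comparisons and annotations were not used. Counts were tested with edgeR 4.0.16 (R 4.3.3, TMM, filterByExpr, quasi-likelihood F-test) over all genes, with Benjamini-Hochberg adjustment and a threshold of 0.05, and with day as a covariate for treated against 0 μM. A log2 fold limit of 1 was applied as a second call. The 3 doses of each day stood in as replicates, so p-values measure the spread between libraries, which may be technical. DESeq2 1.42.0, limma 3.58.1 on log2(FPKM + 1) and log2(FPKM + 0.1), other scalings, filters and controls, depth classes (chosen after seeing the data) and leaving out each library were alternatives. CPM are TMM-normalized. Intervals and limits of detection cover counting and library spread only. All 10 members are named, as are the 2 genes of lowest p in each pathway list and the 3 genes most alike for the 2 members of largest change. The members, lists and motifs were chosen with earlier results of these data known. On simulated counts the treated against 0 μM test recovered 185 of 200 genes planted at a log2 change of 1 among 16290. The test of dose slope recovered 121 of 200 among 16274, and that of the difference between days 3 of 200 among 16811. The largest member change against 0 μM was 0.72, so recovery at the sizes seen in the members was not simulated. Far fewer genes were planted than the 43.3% called in the data. Promoters were matched by symbol for 9 of 10 members.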

Additional observations from a re-analysis of the deposited data

Results flagged for a closer look

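In treated cells, 3 of the 8 members tested by Dixon's test had a library that stood apart from the other 5. The nominal rate is about 1 in 20 groups, but the members share libraries and are not independent. The share of all genes flagged in these libraries was not counted, so the 3 flags are not read as particular to the members. Acvr1 was at 71.4 CPM and Acvr2a at 24.3 CPM at 100 μM on day 10, in both cases the highest library. Smad5 was at 44.7 CPM at 100 μM on day 5, the lowest. All 3 values came from 100 μM libraries, which were among the shallower ones.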

How the results depend on the processing

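Set against the untreated pair, 0 members were higher and 0 lower, and Smad4 turned from -0.27 to 0.017 (adjusted p = 0.922 in edgeR). With the untreated libraries added, 1 was higher and 0 lower. limma on log2(FPKM + 1) and on log2(FPKM + 0.1) gave 1 higher. Within the deeper or the shallower libraries alone, added after seeing the data, and with the 2-fold limit, 0 were higher and 0 lower. For the other pathway genes, adding the untreated libraries gave 19 higher and 7 lower. The share of all genes called is not given for limma, added untreated libraries or depth classes. The counts under those settings are therefore not read as results about the genes. Leaving out 1 library gave 0 to 2 higher and 0 to 1 lower, with 0 of both when the day 10 library at 0 μM was left out. DESeq2 called 1 member between days, among 1199 genes called in all. Over 22 alternatives Bmpr2 and Smad4 passed in 17 each and Smad9 in 12. Bmpr1a passed in 3: with at least 10 counts in every library, with Ensembl genes only, and without the 0 μM library of day 5. The causes were not tested. With dose as a block, which pairs a day 5 with a day 10 library, 0 members differed between days (Bmpr1a 0.32, edgeR adjusted p = 0.0921). No paired analysis was possible for treated against 0 μM because the labels number no replicates across these groups. One library for each dose and day limits all tests.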
